A study of Bos taurus with 42 samples.

Results

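The genes *ELAVL4*, *DCX*, *PAK5*, *SLC17A6*, *GPR12* and *CLVS2*, known from young neurons, were followed through 42 RNA-Seq libraries of bovine fetuses. They are 6 of the 22664 genes in the count table, found by the Ensembl identifiers that the study pairs with these symbols: ENSBTAG00000021046, ENSBTAG00000019591, ENSBTAG00000017679, ENSBTAG00000038347, ENSBTAG00000010769 and ENSBTAG00000021099, in that order. They were selected on expression values of these same libraries, namely their level in the cerebrum relative to the other tissues for 5 of the 6 and their correlations with other genes in the diets. Their tissue levels and their joint variation are therefore descriptions, given without a test. The fetuses were taken at day 50 of gestation from 14 Angus-cross heifers bred to 1 sire. Control dams (CON) received 100% of the intake set for moderate weight gain, and restricted dams (RES) received 60% of the CON delivery from breeding onward. Cerebrum, liver and hind limb muscle of each fetus gave 1 library each, with 7 fetuses per diet, of which 1 CON fetus and 2 RES fetuses were female. Each library is a whole piece of tissue, so fewer neurons and less RNA per neuron cannot be told apart. Fetuses are named by their diet and their number in the labels.

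A neuron that has just left the cell cycle binds and stabilizes a new set of messenger RNAs, rebuilds its microtubules to migrate and to grow an axon, and then assembles its synapses. *ELAVL4* (HuD) is a neuronal RNA-binding protein, and *DCX*, an X-linked gene, encodes doublecortin, which binds microtubules in migrating neurons. *PAK5* is a brain kinase that acts on the cytoskeleton, *SLC17A6* (VGLUT2) loads glutamate into synaptic vesicles, *GPR12* is a G protein-coupled receptor and *CLVS2* (clavesin 2) is a neuronal protein of clathrin-coated vesicles and endosomes. None of these roles is particular to the cortex: *ELAVL4* and *SLC17A6* are also used by neurons of the sensory ganglia.

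The libraries held between 4145093 and 7576159 counts in the cerebrum, between 6658218 and 12741299 in the liver, and between 5384018 and 7592149 in muscle. Levels are given as CPM, the count of a gene scaled to the library total. The value of 3 counts, taken as the least that a library can show, lay between 0.235 and 0.724 CPM over the 42 libraries and covers counting error only. Levels are compared between libraries and not between genes, as transcript lengths were not used here. The tissue labels held against defining markers. *TBR1*, a transcription factor of young cortical neurons, was between 19 and 149 CPM in the cerebrum and at most 0.138 CPM in the liver and 0.645 CPM in muscle, *ALB*, serum albumin, was at least 3996 CPM in the liver, and *MYH3*, the embryonic myosin heavy chain, was at least 943 CPM in muscle.

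Some libraries stood apart before any diet was considered, and the main results that rest on them are given with and without them. In the cerebrum of RES fetus 1, mitochondrially encoded genes took 14.6% of the counts, against 2.71% to 6.87% in the other 13 libraries of that tissue. Markers of other tissues were high in it. *TTR*, made by the choroid plexus and the liver, reached 5907 CPM, the 4 liver markers (*ALB*, *AFP*, *AHSG*, *TF*) summed to 448.4 CPM and the 6 muscle markers (*ACTC1* the most abundant, at 116 CPM) to 248.9 CPM, with each of these 10 genes at 3 counts or more. The 3 markers of red cells summed to 270.3 CPM (*HBA* the most abundant, at 189.5 CPM), the 3 of microglia and leukocytes to 50.8 CPM, and the 2 of the meninges (*SLC6A20*, *PTGDS*) to 30.6 CPM, against at most 6.73 CPM in the other 13. In the 12 libraries other than those of fetuses 1 and 23, *TTR* lay between 15.5 and 1466 CPM, *AHSG* reached 128 CPM at most, against 226.9 CPM in RES fetus 1, and the muscle markers summed to between 2.79 and 30.9 CPM. The liver markers were also high in RES fetus 33, with a sum of 320 CPM. A list of 19 further genes of young neurons, among them *STMN2*, *MAP2* and *NRCAM*, summed to 5589 CPM in RES fetus 1 and to between 10009 and 19909 CPM in the other 13. RES fetus 1 was the lowest of the 14 in CPM for 11 of the 19 (12 with TMM scaling), and not for others such as *TUBB2B* (605 CPM, against 170 to 1794 CPM) and *DPYSL5* (446 CPM, against 189 to 1236 CPM). How far material of other tissues bore on the low values of the 6 genes in RES fetus 1 was not tested. In the cerebrum of CON fetus 23, the trimmed-mean (TMM) scaling factor was 0.535, against 0.840 to 1.13 in the other 13 libraries. TMM scaling therefore raises each value of that library relative to its CPM, and the place of a gene there can depend on the scaling. Of 10 listed markers of radial glia, the stem cells of the cortex, 4 were matched (*PAX6*, *HES1*, *HES5*, *NOTCH1*). They summed to 94.2 CPM in CON fetus 23, against 123 CPM in RES fetus 1 and 253 to 407 CPM in the other 12. Under both scalings these fetuses were the 2 lowest for 3 of the 4, as for 33.1% of all genes tested in CPM and 15.1% with TMM scaling. The order of the 2 fetuses depends on the scaling: with TMM, RES fetus 1 was the lowest of the 14 for *HES5* and *NOTCH1*. In muscle, CON fetus 73 and RES fetus 1 stood above the other 12 libraries for many genes of neurons, and in the liver RES fetus 55 did so at a far lower level.

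In the cerebrum, all 6 genes were detected in all 14 libraries. *ELAVL4* was 238, 250.4, 252, 269, 278, 328 and 441 CPM in the CON fetuses in ascending order, and 63.4, 209.9, 226, 269, 281, 318 and 363 CPM in the RES fetuses. The lowest value belonged to RES fetus 1 and the highest to CON fetus 23, and apart from these fetuses RES (209.9 to 363 CPM) spanned the whole CON range (238 to 328 CPM) and extended past both its ends. *DCX* was 3.53, 22.5, 34.7, 50.0, 57.4, 67.1 and 90.3 CPM in CON, and 1.06, 35.2, 35.6, 36.5, 48.5, 59.6 and 131 CPM in RES. Here CON fetus 23 and RES fetus 1 were the 2 lowest libraries, with 22 and 8 counts. The diets overlapped for *DCX* too, although 1 library of each lay far under its group.

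*PAK5* ranged from 89.1 to 164 CPM in CON (median 139) and from 27.7 to 155 CPM in RES (median 128). *SLC17A6* ranged from 88.9 to 134 CPM in CON (median 101) and from 27.6 to 147 CPM in RES (median 116). The lowest RES value of both genes was that of fetus 1, and the next lowest RES values, 91.2 and 103 CPM, lay inside the CON range. *GPR12* ranged from 17.8 to 54.7 CPM in CON (median 27.9) and from 8.32 to 36.4 CPM in RES (median 26.4). *CLVS2* ranged from 20.8 to 27.3 CPM in CON (median 22.9) and from 8.05 to 26.9 CPM in RES (median 22.5). Fetus 1 again had the lowest RES value of both genes. The next lowest of *GPR12*, 19.5 CPM, lay inside the CON range. For *CLVS2*, RES fetuses 25 (15.9 CPM) and 55 (18.5 CPM) also lay under the CON range. RES fetus 1 was thus the lowest of the 14 for 6 of the 6 genes, a place that it took for 24.4% of the 15151 genes tested in the cerebrum (27.4% with TMM scaling). Both scalings gave 6 of 6. CON fetus 23 was the highest for *ELAVL4* and *GPR12* in CPM, a place that it took for 6.68% of all genes tested. With TMM scaling it was the highest for all but *DCX*, and for 22.2% of all genes tested. RES fetus 1 and CON fetus 23 together were the 2 lowest libraries for *DCX* and *SLC17A6* in CPM, as for 33.1% of all genes tested, and for *DCX* alone with TMM scaling, as for 15.1%.

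**Figure D1:**
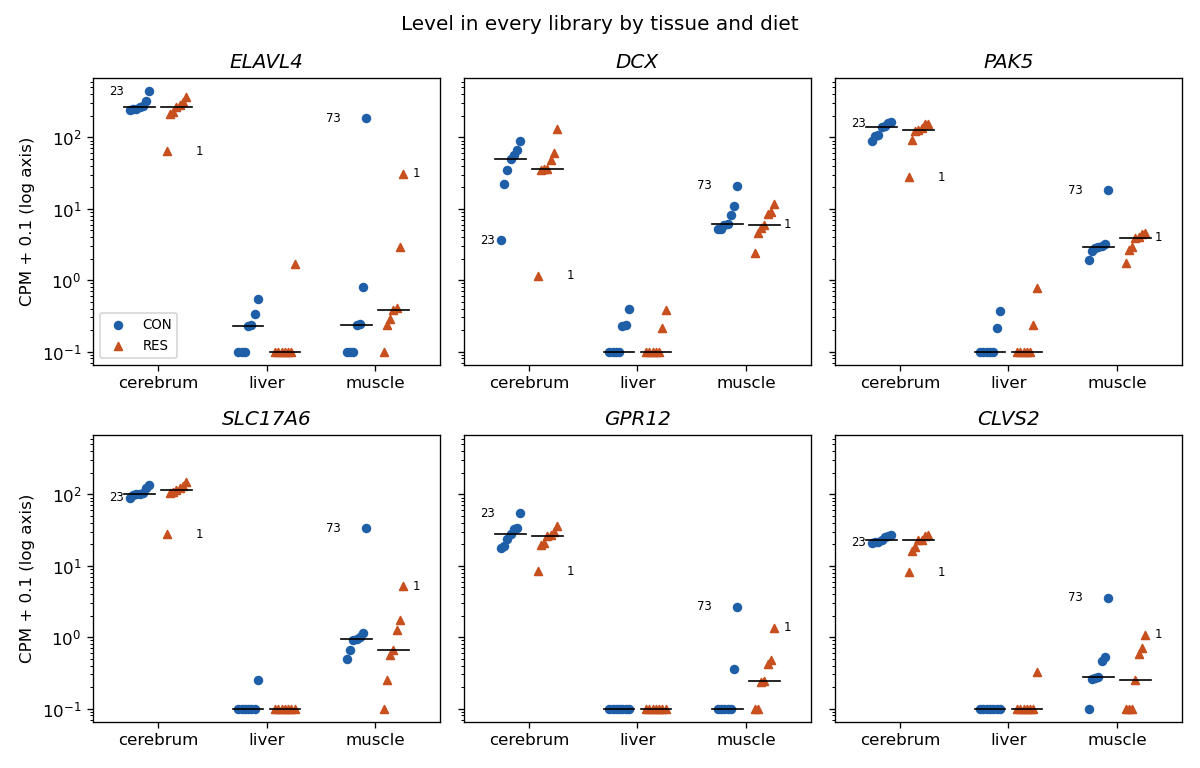
Level of each gene in every library, as CPM + 0.1 on a log axis, by tissue and diet (blue circles CON, orange triangles RES, black bars the median of 7). In the cerebrum fetus 1 lies under all other libraries for each gene and fetus 23 lies low for *DCX* (3.53 CPM), and in muscle fetus 73 lies above all other libraries for each gene.

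In the liver, the 6 genes were at or near 0. *GPR12* had 0 counts in 14 of 14 libraries, *SLC17A6* had 1 count, *CLVS2* 2, *DCX* 7, *PAK5* 10 and *ELAVL4* 21 counts over all 14 together. Of the 21 *ELAVL4* counts, 14 came from RES fetus 55, which also held 6 of the 10 *PAK5* counts and the 2 *CLVS2* counts. In that library *STMN2*, a microtubule regulator of growing axons, was 17.7 CPM against 0.413 to 5.56 CPM in the other 13, and *PRPH*, the intermediate filament peripherin of peripheral neurons, was 5.91 CPM against at most 0.751 CPM. Over pooled counts, the cerebrum level was 1531-fold the liver level for *ELAVL4* (1002 to 2474, a 95% Poisson interval of the liver count that covers counting error only), 805-fold for *DCX* (391 to 2002) and 1464-fold for *PAK5* (796 to 3053). For *CLVS2*, with 2 liver counts, it was 1289-fold (357 to 10645). These values rested in part on RES fetus 55. Without its liver, a choice made after seeing the data, the ratio was 4251-fold for *ELAVL4* (2063 to 10573, from 7 counts), 3387-fold for *PAK5* (1323 to 12429, from 4 counts) and 869-fold for *DCX* (399 to 2367), and *CLVS2* had 0 counts left. For *GPR12* it was at least 1092-fold higher, taken against 3 counts over the 14 liver libraries. Without scaling between tissues, these ratios compare shares of the counts in each tissue, and mitochondrially encoded genes took between 4.03% and 67.6% of the counts of the liver libraries.

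In muscle, *DCX* and *PAK5* were detected with 3 or more counts in 14 of 14 libraries, *SLC17A6* in 12, *CLVS2* in 5, *ELAVL4* in 4 and *GPR12* in 2. *DCX* was 20.8 CPM in CON fetus 73 and ranged from 5.10 to 10.7 CPM in the other CON fetuses and from 2.28 to 11.7 CPM in RES, with 5.88 CPM in RES fetus 1. *PAK5* was 18.0 CPM in CON fetus 73 and ranged from 1.84 to 3.09 CPM in the other CON fetuses and from 1.61 to 4.51 CPM in RES. The other 4 genes were low except in CON fetus 73 and RES fetus 1. *ELAVL4* was 187 CPM in CON fetus 73, 31.1 CPM in RES fetus 1, 2.82 CPM in RES fetus 70 and at most 0.695 CPM in the other 11. *SLC17A6* was 33.4 CPM in CON fetus 73, 5.04 CPM in RES fetus 1 and at most 1.61 CPM in the other 12. *GPR12* was 2.55 and 1.26 CPM and *CLVS2* 3.45 and 0.980 CPM in these same libraries, with 17, 9, 23 and 7 counts.

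In CPM, the ranges of cerebrum and muscle overlapped for *ELAVL4*, *SLC17A6* and *DCX*, for *ELAVL4* and *SLC17A6* because the muscle of CON fetus 73 exceeded the cerebrum of RES fetus 1. The ranges did not overlap for *PAK5*, *GPR12* and *CLVS2*. With TMM scaling within each tissue, those of *SLC17A6* did not overlap either (log2 CPM 5.02 in that muscle and 5.05 in that cerebrum). *DCX* was higher in muscle than in the cerebrum in fetuses 1 (5.88 against 1.06 CPM) and 23 (5.10 against 3.53 CPM). For fetus 23, with 28 and 22 counts, the order reversed with TMM scaling (log2 CPM 2.42 in muscle and 2.76 in the cerebrum). Over pooled counts the cerebrum level of *ELAVL4* was 16.3-fold that of muscle (15.5 to 17.1), and 668-fold (470.4 to 983) without the muscle of fetuses 1 and 73. These intervals too cover counting error only and not the spread between fetuses: of the 1499 muscle counts of *ELAVL4*, 1246 came from CON fetus 73 and 222 from RES fetus 1. The ratio of *PAK5* went from 29.8 (26.9 to 33.04) to 41.9 (36.7 to 47.9), that of *GPR12* from 73.1 (52.3 to 105.5) to 264 (134 to 610.5) and that of *CLVS2* from 42.5 (31.9 to 58.1) to 104 (63.9 to 181). The same ratio of *SLC17A6* went from 30.5 (27.3 to 34.2) to 152 (117 to 204), whereas that of *DCX* went from 6.13 (5.69 to 6.61) to 7.03 (6.45 to 7.67).

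In the muscle of CON fetus 73 and RES fetus 1, further genes of neurons were high beside *ELAVL4* and *SLC17A6*. *PRPH* was 1127 CPM and 263 CPM in them, against 5.01 to 15.4 CPM in the other 12. *ELAVL2*, a relative of *ELAVL4*, was 78.7 and 15.8 CPM. Among 19 further genes of young neurons that were tested in muscle, CON fetus 73 was highest and RES fetus 1 second for 16, an order that 3.93% of the 14947 genes tested had (3.81% in CPM). The 19 summed to 8075 CPM in CON fetus 73, 1964 CPM in RES fetus 1 and between 510 and 686 CPM in the other 12. Among the 4 of the 6 genes that passed the filter in muscle, *ELAVL4* and *SLC17A6* had it. All 4 were highest in CON fetus 73, as were 15.9% of all genes tested (18.2% in CPM). As *ELAVL4* passed the filter only through CON fetus 73 and RES fetuses 1 and 70, the filter largely fixed its order, and nothing is read from these counts of 4. The level in CON fetus 73 was 6.01-fold that in RES fetus 1 for *ELAVL4*, 6.63-fold for *SLC17A6*, 4.97-fold for *ELAVL2*, 4.28-fold for *PRPH* and 4.85-fold for *STMN2*. The part of nerve tissue in these values was not tested.

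**Figure D2:**
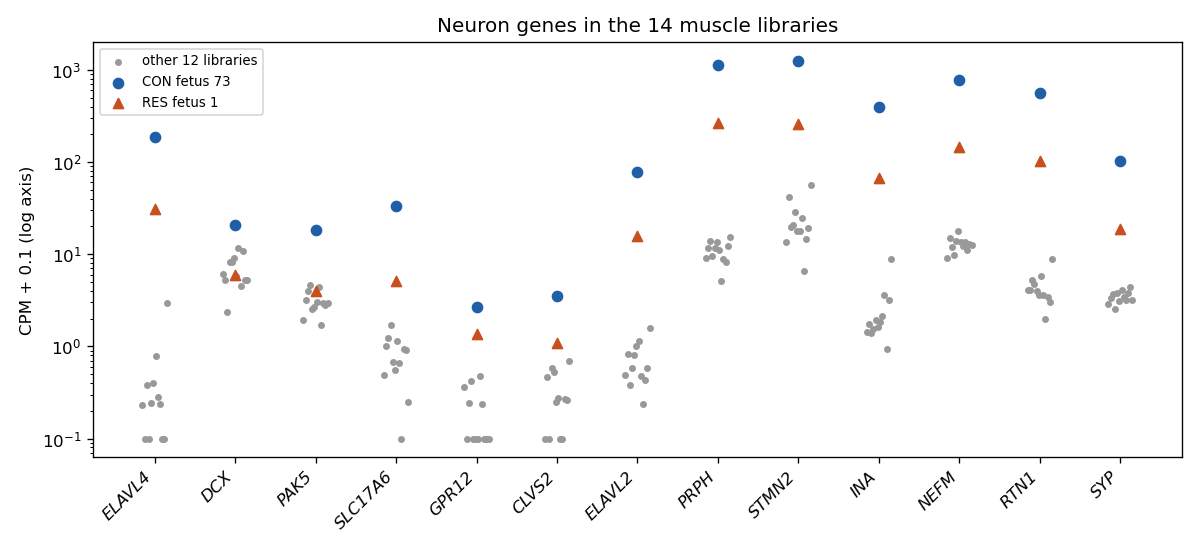
The 6 genes, *ELAVL2* and 6 further genes of neurons in the 14 muscle libraries, as CPM + 0.1 on a log axis (blue circle CON fetus 73, orange triangle RES fetus 1, grey points the other 12). For *ELAVL4*, *SLC17A6* and *PRPH* both libraries lie above the other 12, while *DCX* and *PAK5* of RES fetus 1 (5.88 and 3.92 CPM) lie among them.

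The question of the design, whether maternal restriction changed these genes, was addressed with edgeR's quasi-likelihood test with sex as a covariate, fitted over all genes of a tissue with Benjamini-Hochberg adjustment. Each fetus came from its own dam. In the cerebrum none of the 6 genes passed an adjusted p of 0.05, as was the case for all 15151 genes tested (0% called, 386 genes or 2.55% with an unadjusted p under 0.05). The log2 fold change of RES against CON was -0.49 ± 0.35 for *ELAVL4* (SE, 95% interval -1.24 to 0.26) and 0.06 ± 0.59 for *DCX* (-1.20 to 1.32). It was -0.37 ± 0.33 for *PAK5*, -0.16 ± 0.25 for *SLC17A6*, -0.62 ± 0.41 for *GPR12* and -0.37 ± 0.24 for *CLVS2*, each with an adjusted p of 0.999 in edgeR. The median over the 6 was -0.37, beside -0.03 over all genes tested.

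The negative estimates in the cerebrum rested on fetuses 1 and 23. Without both, in a fit added after seeing the data, the log2 fold change was 0.06 ± 0.15 for *ELAVL4*, 0.08 ± 0.17 for *PAK5*, 0.13 ± 0.13 for *SLC17A6*, 0.04 ± 0.21 for *GPR12*, -0.10 ± 0.16 for *CLVS2* and 0.10 ± 0.33 for *DCX*. Thus 4 of the 6 genes changed sign, and the SE of *ELAVL4* fell from 0.354 to 0.149. The share of all genes that changed sign is not given here. Over all genes tested, negative estimates went from 55.1% to 50.2% and the median from -0.029 to -0.00043. Scaled to library totals alone with all 14 fetuses, the value of *ELAVL4* was -0.23 ± 0.29.

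Of the 19 further genes of young neurons, none passed in the cerebrum, and 1 had an unadjusted p under 0.05. Their median log2 fold change was -0.27, and 19 of 19 estimates were negative, as were 55.1% of those of all genes tested. Without fetuses 1 and 23 the median was -0.11 and 14 of 19 were negative, beside 50.2% of all genes. Of the 6 relatives that were matched (*ELAVL2*, *ELAVL3*, *PAK1*, *PAK2*, *PAK3*, *CLVS1*), none passed, with a median of -0.13 (-0.0069 without fetuses 1 and 23). By comparison, the estimates of the 4 liver markers and of the 4 muscle markers tested in the cerebrum were all positive, with medians of 2.69 and 2.42, and none passed the adjusted threshold although 8 of 8 had an unadjusted p under 0.05. The medians were also positive for the 3 red cell markers (2.06), the 2 meningeal markers (1.60) and the 3 markers of microglia and leukocytes (0.75), and *TTR* had 1.62, with none past the adjusted threshold. Without fetuses 1 and 23 the medians of the liver and muscle markers were 2.15 and 0.49, those of red cells (2 tested), meninges and leukocytes 1.30, 0.46 and 0.21, and *TTR* had 0.55, again with none past the adjusted threshold. Their summed levels were highest in RES fetus 1, and their part in the estimates of the 6 genes was not tested.

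**Figure D3:**
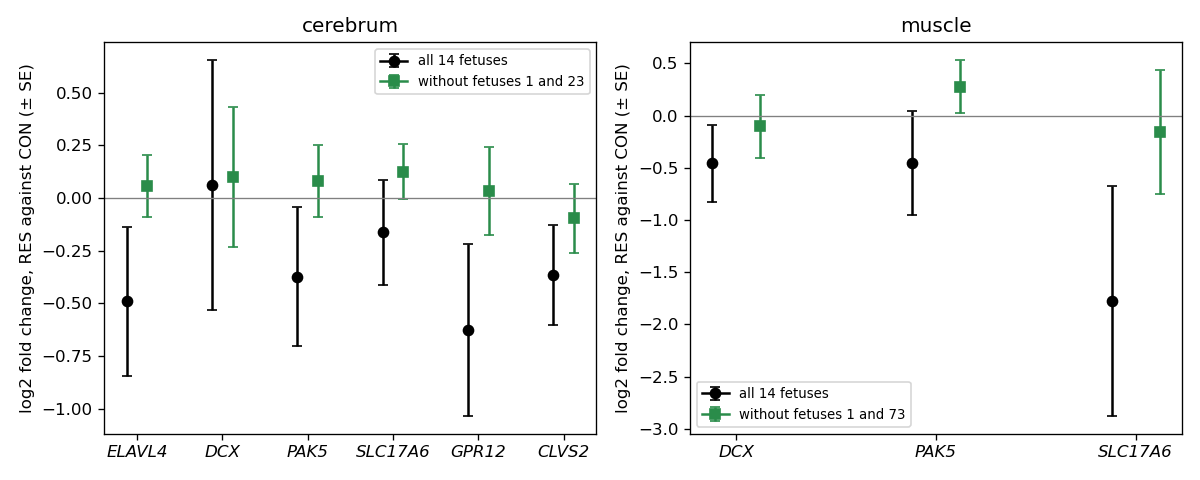
Log2 fold change of RES against CON (± SE) from edgeR in the cerebrum and in muscle, with all 14 fetuses (black circles) and without the pair of fetuses named in the key (green squares). In the cerebrum *ELAVL4* goes from -0.49 to 0.06 and in muscle *SLC17A6* goes from -1.77 to -0.16. Genes tested under both settings are drawn, so *ELAVL4* is absent in muscle.

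In the liver no member passed the filter on low counts, so none was tested there, among 13527 genes of which 0% were called (3260 genes, 24.1%, with an unadjusted p under 0.05). In muscle 4 of the 6 were tested among 14947 genes, of which 0% were called (1481 genes, 9.91%, with an unadjusted p under 0.05). The log2 fold change was -1.83 ± 1.74 for *ELAVL4* (edgeR adjusted p = 0.710), -1.77 ± 1.10 for *SLC17A6* (0.595), -0.46 ± 0.37 for *DCX* (0.665) and -0.45 ± 0.50 for *PAK5* (0.751). Without fetuses 1 and 73 *ELAVL4* was no longer tested, and the values were -0.16 ± 0.59 for *SLC17A6*, -0.10 ± 0.30 for *DCX* and 0.28 ± 0.25 for *PAK5*. The 19 further genes of young neurons had a median of -1.30 in muscle, and 19 of 19 estimates were negative, beside 51.9% of all genes tested. Without fetuses 1 and 73 their median was 0.09, and 5 of the 18 tested were negative, beside 47.9% of all genes.

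Between the 3 female and 11 male fetuses, no member differed in the cerebrum by edgeR's test, in which 1 of 15151 genes was called (0.0066%, and 4.09% of genes had an unadjusted p under 0.05). The log2 fold change of female against male was -0.11 ± 0.73 for *DCX* (adjusted p = 0.992) and -0.23 ± 0.44 for *ELAVL4* (adjusted p = 0.975), and the intervals, from -1.65 to 1.44 for *DCX*, were wide.

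Joint variation in the cerebrum was described with variance-stabilized (VST) values, a log2-like scale computed by DESeq2, over the 14 libraries. On this scale, the genes other than *DCX* varied together. The 10 pairs without *DCX* had a Pearson r between 0.72 and 0.95, with *ELAVL4* and *PAK5* at 0.95 (Spearman's rho 0.81) and *ELAVL4* and *CLVS2* at 0.95 (rho 0.84). Of all other genes kept in the cerebrum, 0.0660% had an r with *ELAVL4* as high as *PAK5* did. The share was larger for other pairs, at 1.03% for *SLC17A6* and 35.9% for *DCX* with *ELAVL4*, and 4.82% for *GPR12* with *SLC17A6*. The 5 pairs with *DCX* were weaker, between -0.03 with *GPR12* (rho 0.17) and 0.53 with *SLC17A6* (rho 0.33). That contrast depended on the scaling: on library totals without a scaling factor, the 5 pairs with *DCX* lay between 0.34 with *GPR12* (rho 0.19) and 0.87 with *SLC17A6* (rho 0.82), and the 10 without it between 0.64 and 0.94.

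On the VST scale, the fetuses farthest from the median were 1 and 23 for each of the 6 genes, and the correlations rested on them. Without these fetuses, r fell to 0.70 for *ELAVL4* with *PAK5*, 0.77 with *CLVS2* and 0.27 with *GPR12*, and to 0.03 for *SLC17A6* with *CLVS2*. Among the 10 pairs without *DCX*, that of *PAK5* and *GPR12* kept the highest r over the 12, at 0.90 over 14 libraries and 0.79 over 12. Over the 12 libraries the median r was 0.34 for the pairs without *DCX* and 0.30 for those with it. The mean over the 15 pairs was 0.66 over 14 libraries and 0.38 over 12.

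The correlations of *DCX* with the other 5 genes had opposite signs in the diets. In CON they lay between -0.82 and -0.64, and in RES between 0.77 and 0.95. Each diet held 1 of the extreme libraries: RES fetus 1, in which all 6 genes were low, and CON fetus 23, in which *DCX* was low and *ELAVL4* high. Over the 13 libraries without RES fetus 1 the 5 correlations lay between -0.61 and -0.35, over the 13 without CON fetus 23 between 0.66 and 0.90, and over the 12 without both between 0.16 and 0.49. The CON values also moved with the scaling. On library totals without a scaling factor, r in CON was -0.75 for *DCX* with *ELAVL4* and 0.75 for *DCX* with *SLC17A6*, and -0.39 for *ELAVL4* with *SLC17A6*, which had 0.90 on the VST scale.

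**Figure D4:**
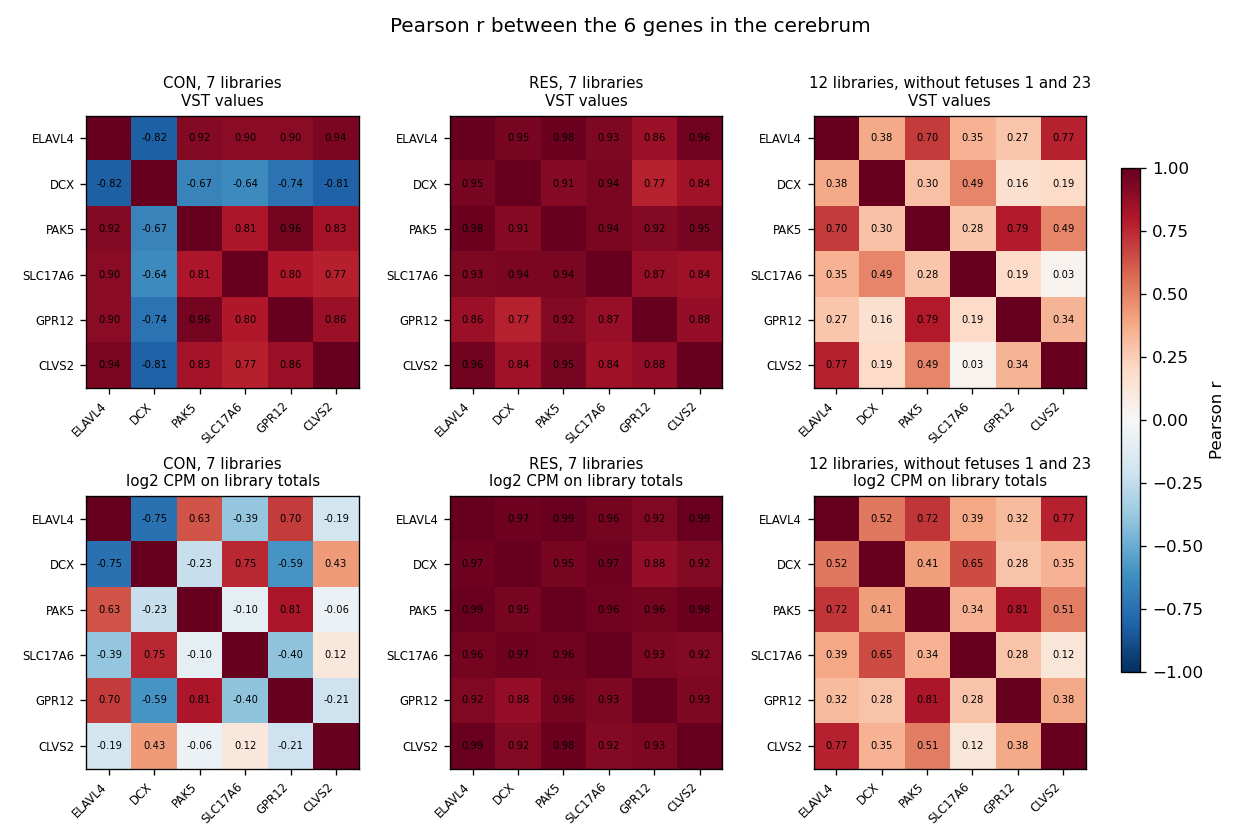
Pearson r for each pair of the 6 genes in the cerebrum, in 7 CON libraries, 7 RES libraries and the 12 libraries without fetuses 1 and 23, with VST values above and log2 CPM on library totals below. The row of *DCX* is negative in CON (-0.82 to -0.64) and positive in RES (0.77 to 0.95) on the VST scale, and the CON pattern changes on library totals.

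The ratio of *ELAVL4* to *DCX* counts within a library, which needs no scaling, set the same fetuses apart. It was 125 in CON fetus 23 and 60.0 in RES fetus 1, and between 2.78 (RES fetus 52) and 12.0 (CON fetus 2) in the other 12 cerebrum libraries. Both libraries thus held fewer *DCX* counts per *ELAVL4* count than any other. *GPR12* was high beside *ELAVL4* in fetus 23, at 54.7 CPM against 17.8 to 36.4 CPM in the 12.

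**Figure D5:**
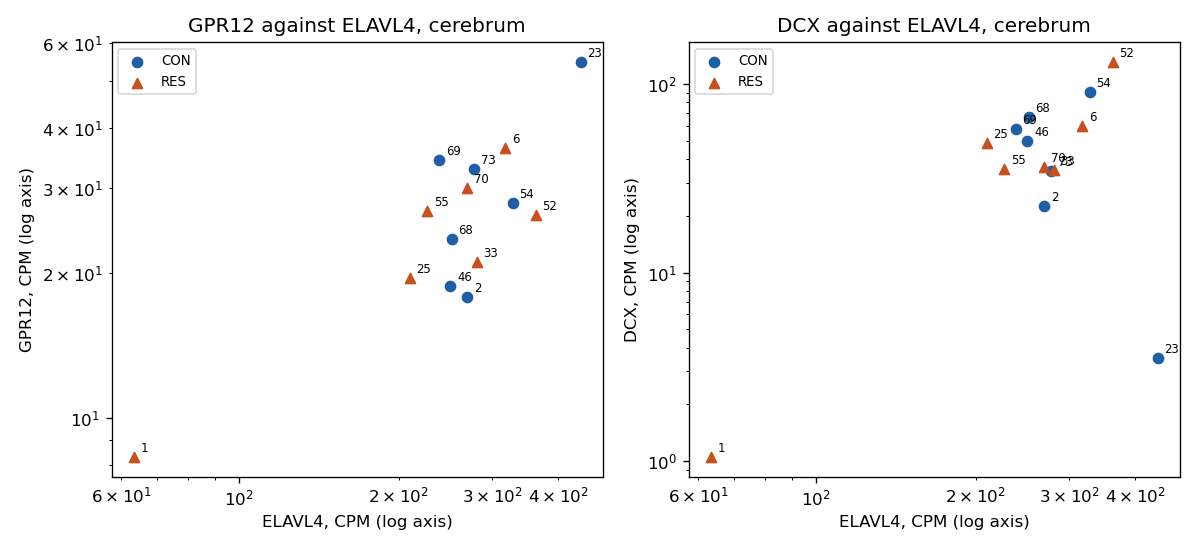
*GPR12* (left) and *DCX* (right) against *ELAVL4* in the 14 cerebrum libraries, in CPM on log axes, each point labelled with its fetus number (blue circles CON, orange triangles RES). Fetuses 1 and 23 lie at opposite ends for *GPR12* (8.32 and 54.7 CPM), but both lie at the bottom for *DCX* (1.06 and 3.53 CPM).

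*DCX* also differed from the others in its spread. The SD of its VST values was 1.24 over 14 libraries, and 0.713% of the genes kept in the cerebrum had one as large. Without fetuses 1 and 23 it was 0.607, with 3.88% of genes as large, and the 12 libraries ranged from 22.5 to 131 CPM. Without the same fetuses, the SDs of the other 5 lay between 0.171 and 0.297, all under the median gene at 0.305. *ELAVL4*, whose SD of 0.694 over 14 libraries was reached by 9.56% of genes, was then at 0.226, a value reached by 79.4%.

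Of the 6 relatives measured in the cerebrum, 4 had a higher r with *DCX* than with *ELAVL4*. The share of all genes for which this held is not given here, so nothing is read about the relatives from this count. Among all genes kept, 444 reached an r of at least 0.9 with *DCX* and 88 with *ELAVL4*. *ELAVL2* and *ELAVL3*, further neuronal RNA-binding proteins, *PAK3*, a neuronal kinase, and *CLVS1* had an r with *DCX* of 0.86, 0.92, 0.94 and 0.93, and of 0.62, 0.38, 0.24 and 0.27 with *ELAVL4*. Without CON fetus 23 alone, the values were 0.95, 0.92, 0.92 and 0.92 with *DCX* and 0.90, 0.88, 0.88 and 0.78 with *ELAVL4*. Over the 12 libraries without fetuses 1 and 23, their r was 0.80, 0.65, 0.69 and 0.80 with *DCX* and 0.39, 0.33, 0.45 and 0.30 with *ELAVL4*. The kinase gene *PAK2* had an r of 0.90 with *ELAVL4* and -0.01 with *DCX* (0.63 and 0.11 over the 12), and *PAK1* had -0.40 and -0.67 (0.55 and -0.06 over the 12). *ELAVL3* was 5.94 CPM in RES fetus 1 and 17.5 CPM in CON fetus 23, and between 59.0 and 158 CPM in the other 12. *PAK3* was 1.85 and 3.85 CPM in these fetuses and between 20.7 and 60.5 CPM in the others. The adhesion molecule gene *NRCAM* followed, with 8.71 and 9.15 CPM against 34.7 to 102 CPM. By comparison, *STMN2* had an r of 0.92 with *ELAVL4* and -0.11 with *DCX*, and *MAP2*, a dendritic microtubule protein, had 0.97 and 0.19. Other members of the same list of 19 genes of young neurons went the other way. *DPYSL3* had an r of 0.21 with *ELAVL4* and 0.91 with *DCX* (0.37 and 0.82 over the 12), and *MAPT* had 0.36 and 0.87 (0.21 and 0.70 over the 12). Without CON fetus 23 alone, the r with *ELAVL4* was 0.73 for *DPYSL3* and 0.75 for *MAPT*. *STMN2* was 4396 CPM in CON fetus 23, above the range of 2645 to 3320 CPM in the 12, and 1326 CPM in RES fetus 1. Without CON fetus 23 alone, the r with *DCX* was 0.68 for *STMN2* and 0.77 for *MAP2*. Without fetuses 1 and 23, *STMN2* had an r of 0.38 with *ELAVL4* and -0.24 with *DCX*, and *MAP2* had 0.68 and -0.11.

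Genes with a symbol that were among the most like each member over the 14 cerebrum libraries were named by rank of Pearson r among 4610 genes, with the 6 members left out. For *DCX* these were *KIF5C*, a neuronal kinesin motor (0.99), *LRRC8B*, a subunit of volume-regulated anion channels (0.98), and *USP32*, a deubiquitinase (0.98). They kept r values of 0.97, 0.95 and 0.93 over the 12 libraries without fetuses 1 and 23. For *PAK5* they were *YWHAG*, a 14-3-3 protein (0.99, and 0.97 over the 12) and *MEX3B*, an RNA-binding protein (0.94, and 0.72 over the 12). For *ELAVL4* they were *USP14*, a deubiquitinase of the proteasome (0.98, and 0.87 over the 12), *LRP12* (0.98, and 0.84) and *HDGFL3* (0.98, and 0.75). For *SLC17A6* they were *CPEB4*, which binds polyadenylation elements of mRNAs (0.98, and 0.92 over the 12), *PLEKHA1* (0.97, and 0.90) and *LIN7C* (0.97, and 0.79). For *GPR12* they were *GNPTAB* (0.96, and 0.82 over the 12), *PNMA1* (0.96, and 0.69) and *WASF3* (0.94, and 0.59). For *CLVS2* they were *GABRA5*, a GABA-A receptor subunit (0.94, and 0.78 over the 12), *LRP11* (0.94, and 0.75) and *USP14* (0.92, and 0.61). Among all 15151 genes kept, an r of at least 0.9 was reached by 444 genes with *DCX*, 88 with *ELAVL4* and 20 with *CLVS2*.

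Against the mean z-score of the 6 genes, the 10 highest genes had an r between 0.95 and 0.97. They were *LRP11*, *TRIM36*, *HDGFL3*, *ATP6V1A*, *PDP1*, *GPM6A*, *ATL1*, *GSPT2*, *RRAGB* and *CNR1*, among them a neuronal membrane glycoprotein (*GPM6A*), an axonal GTPase of the endoplasmic reticulum (*ATL1*) and the cannabinoid receptor (*CNR1*). Over the 12 libraries, their r lay between 0.63 (*ATL1*) and 0.95 (*TRIM36*). The 5 lowest were *SMARCD2* (-0.97), *TLN1*, the adhesion protein talin (-0.95), *TMEM39A* (-0.95), *TRIP6* (-0.94) and *INPPL1* (-0.94). Their r lay between -0.79 and -0.62 without fetuses 1 and 23.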

How the data were processed

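RNA of 42 fetal tissue samples was sequenced from strand-specific libraries. The authors mapped reads to ARS-UCD 1.2 with STAR 2.7.3a and deposited raw counts per Ensembl gene, with all 42 columns matched to labels. The strand setting of the counting is not given in the sources used here. Symbols came from the study's supplementary tables and were matched for 5117 genes, so genes without one are not named. The 6 genes, the marker lists and the tests were chosen with earlier results of these data known. CPM was count over library total. Genes with a CPM under 1 in at least 80% of a tissue's libraries were left out. Diet and sex were tested with edgeR 4.0.16 (R 4.3.3, TMM, quasi-likelihood, Benjamini-Hochberg at 0.05), with DESeq2 1.42.0 as an alternative and for VST, and tested on simulated data. Alternatives were other scalings, filters, tests and prior counts, no sex covariate and fetuses left out. Log2 CPM used a prior count of 1. Named were the 6 genes, relatives, markers, and by r the 3 genes most like each member (members left out) and the 10 highest and 5 lowest against their mean. Some genes that these rules name are not reported here.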

Additional observations from a re-analysis of the deposited data

Results flagged for a closer look

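In 27 groups of 7 libraries with at least 3 counts in some library, log2 CPM with TMM scaling was searched for libraries that stood apart. A value was flagged where the gap of the lowest or highest library to the next exceeded 0.568 of the group's range. Chance passes that cut in about 1 of 20 groups only for independent, normally distributed values. Here the groups share libraries, the genes were chosen partly on correlations, and *ELAVL4* in the RES liver had 6 libraries at 0. The number of flags is therefore not compared with chance. The search gave 15 values, all from 4 libraries. In the cerebrum of RES fetus 1 the log2 CPM was 6.24 for *ELAVL4*, 0.53 for *DCX*, 5.05 for *PAK5* and 5.05 for *SLC17A6*, each the lowest of the RES group. In the cerebrum of CON fetus 23 it was 9.69 for *ELAVL4*, 7.38 for *SLC17A6*, 6.68 for *GPR12* and 5.31 for *CLVS2*, each the highest of the CON group. On library totals, the gap for these 4 genes was 0.479, 0, 0.419 and 0 of the range, where 0 means that fetus 23 was no longer the highest.

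In the muscle of CON fetus 73 the log2 CPM was 7.50 for *ELAVL4*, 4.13 for *PAK5*, 5.02 for *SLC17A6*, 1.39 for *GPR12* and 1.80 for *CLVS2*. In the liver of RES fetus 55 it was 0.44 for *ELAVL4*, with 14 counts, and -0.63 for *PAK5*, with 6 counts. On library totals, the gap fell under 0.568 for *CLVS2* in the muscle of CON fetus 73 (from 0.574 to 0.557) and for *PAK5* in the liver of RES fetus 55 (from 0.616 to 0.452). It stayed above 0.568 for the other values of these libraries and of the cerebrum of RES fetus 1.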

How the results depend on the processing

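No paired analysis was possible because the replicate number names a fetus and the diets share no fetus. Estimates for the 6 genes stayed above an adjusted p of 0.05 under every alternative run. Without fetuses 1 and 23, added after seeing the data, the diet estimate in the cerebrum turned to 0.058 for *ELAVL4*, 0.082 for *PAK5*, 0.13 for *SLC17A6* and 0.036 for *GPR12*, and the sex estimate of *SLC17A6* to -0.0026. On library totals, also added after seeing the data, sex estimates turned to 0.034 for *PAK5*, 0.095 for *GPR12* and 0.0094 for *CLVS2*. In muscle without fetuses 1 and 73, added likewise, *PAK5* turned to 0.28, and *ELAVL4* did not pass the filter. The cause of these turns was not tested.

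Leaving out 1 fetus at a time, the diet estimate in the cerebrum ranged from -0.41 to 0.30 for *DCX* and from -0.27 to 0.011 for *SLC17A6*. It stayed negative but moved widely for *ELAVL4* (-0.62 to -0.11), *PAK5* (-0.53 to -0.10), *GPR12* (-0.84 to -0.11) and *CLVS2* (-0.45 to -0.22). In muscle it ranged from -0.61 to 0.35 for *PAK5* and from -2.68 to 0.83 for *SLC17A6*, the highest of both without CON fetus 73. *ELAVL4* was not tested in muscle in 3 of these fits. The sex estimate ranged from -0.40 to 0.0085 for *ELAVL4*, -0.57 to 0.22 for *DCX*, -0.25 to 0.21 for *PAK5*, -0.058 to 0.16 for *SLC17A6*, -0.26 to 0.34 for *GPR12* and -0.25 to 0.023 for *CLVS2*.

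Genes called between the sexes in the cerebrum, 1 in edgeR, numbered 6 with DESeq2, 7 without a filter, 0 with a stricter filter, 2 on library totals, 4 without fetuses 1 and 23, and 0 to 2 with 1 fetus left out. DESeq2 called 78 genes between the diets in the liver and 14 in muscle, where edgeR called 0, and 0 in the cerebrum. The mean of the 15 correlations, 0.66, was 0.33 in CON alone, 0.90 in RES alone and between 0.37 and 0.81 with 1 fetus left out, and on library totals it was 0.77 over all, 0.036 in CON and 0.95 in RES. The median difference over the 6 genes in mean log2 CPM between cerebrum and liver, 8.64, was 9.54 with a prior count of 0.5, 6.59 with 5, 7.90 with TMM factors over the 3 tissues and 7.94 with DESeq2's size factors. That between cerebrum and muscle, 6.03, was 4.74 with a prior count of 5. Under the stricter filter, *ELAVL4* and *SLC17A6* were not tested in muscle. Depth limits the liver and muscle values of *GPR12* and *CLVS2*, which rest on few counts.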
